A study of Mus musculus with 8 samples.

Results

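The testes examined here are the 8 samples of a *Morc2b* knockout series at postnatal day 12, divided by replicate number. Replicates 2 and 4 of both genotypes (4 even-numbered samples) were set against replicates 1 and 3 of both genotypes (4 odd-numbered samples). All 8 samples of the series were used, and each side held 2 samples of each genotype. The division was picked from the data of these same samples, to follow the progress of the first meiotic wave. The difference between the sides is therefore given as a description without a test, and no cause is inferred. In the labels, the replicate number carries no treatment, litter or date.

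The controls were labelled wild type, and the mutants were *Morc2b*-/- males with a targeted deletion of the exon that holds the whole coding region, replaced by a PGKNeo cassette. The mutant line derives from 1 embryonic stem cell clone, the strain background is mixed, and the mice were offspring of heterozygous parents. The text deposited with the series calls the controls *Morc2b*+/-, whereas the sample labels and the methods call them wild type. Whole testis RNA was sequenced, so germ cells of every stage present were measured together with Sertoli, Leydig, peritubular and blood cells. In such bulk samples, fewer cells of a type and less RNA per cell cannot be told apart.

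Germ cells of the first wave of spermatogenesis enter meiosis almost together, so a juvenile testis of a given age is enriched in particular meiotic stages. In leptotene and zygotene spermatocytes, chromosome axes are built from cohesins, SYCP2 and SYCP3, SPO11 makes DNA breaks, and SYCP1 then joins the paired axes into the synaptonemal complex. The broken ends are coated by single-strand binding proteins, among them MEIOB with its partner SPATA22, and repaired by strand exchange proteins, among them the meiotic recombinase DMC1. *Sycp1*, *Sycp2*, *Sycp3*, *Meiob* and *Spata22* served as markers of this stage.

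The targeted gene was examined first. *Morc2b* (chromosome 17, 33272533 to 33276628, minus strand, NCBIM37) stood at 11.7, 0.857, 0.323 and 3.29 CPM in the odd-numbered samples and at 16.2, 40.0, 0.270 and 0.0688 CPM in the even-numbered samples. CPM is the count of a gene per 1000000 counts of its library, with the library size scaled by the TMM method. Throughout, the 4 values of a side are given in the same order, the lower and the higher replicate number of wild type followed by the lower and the higher number of *Morc2b*-/-. *Morc2b* was higher in even-numbered than in odd-numbered wild type testes and was at or below 115 counts in every *Morc2b*-/- testis. Wild type replicate 3, with 24 counts, lay below *Morc2b*-/- replicate 3, with 115 counts. Counts are given per whole transcript, so the exon from which the reads in the mutants came was not tested.

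Between 27144796 and 36941755 reads were counted in a sample, and the sides overlapped in depth. Of the odd-numbered samples, 2 stood apart from all others. Summed over 20 spermatid transcripts, wild type replicate 1 had 202.7 CPM and *Morc2b*-/- replicate 3 had 386.5 CPM, against 25.9 to 71.1 CPM in the other 6. Wild type replicate 1 also had 253.3 CPM of epididymal transcripts (16 genes), against 3.03 to 18.0 CPM in the other samples, and 2409 CPM of peritubular transcripts, against 1243 to 1537 CPM. In a principal component analysis of log2 CPM centred within each genotype, the first component (41.9% of the variance) separated these 2 samples, at -41.9 and -41.3, from the other 6, at -0.49 to 36.8. The next component (27.2% of the variance) held wild type replicate 3 (-39.8) and *Morc2b*-/- replicate 1 (-24.3) at its low end and wild type replicate 4 (32.4) and *Morc2b*-/- replicate 4 (14.8) at its high end. The even-numbered and odd-numbered samples were thus not divided by either component alone, and each side was mixed within itself. For several lists, values without the 2 spermatid-rich samples are given as well.

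**Figure D1:**
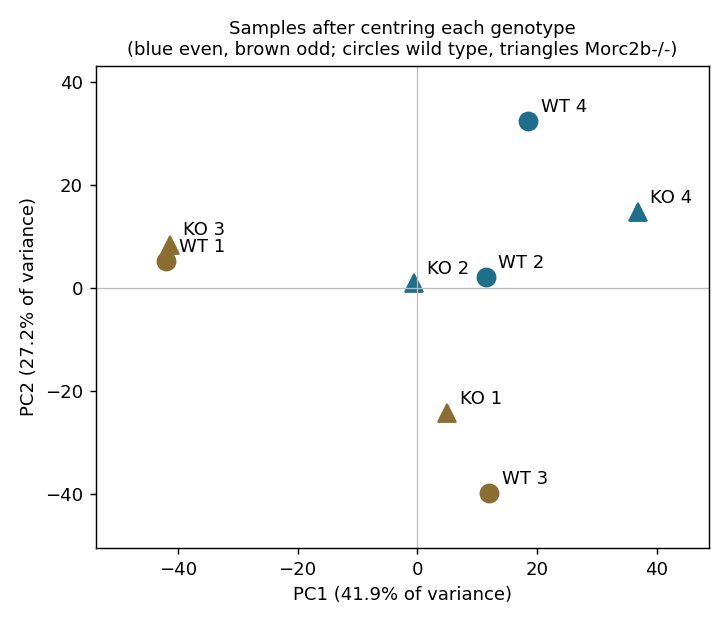
Principal components of log2 CPM after centring each gene within each genotype, with the percentage of variance on each axis. Wild type replicate 1 and *Morc2b*-/- replicate 3 lie at the left, near -41.9 and -41.3 on the first component, and the other odd-numbered samples lie at the bottom.

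Promoters are shown for 4 of the markers and for *Hfm1* and *Rad51ap2*, which are called higher below, because these genes carry the meiotic side of the comparison. The 150 bases before the transcription start are given 5' to 3' on the strand of the gene, from RefSeq on GRCm38.p6. Capitals mark a motif found by search on both strands, GCGGGA for E2F factors, TAACNG for MYB factors or CNCCTCAG for STRA8. The X-box core GTTGCCAT and the CRE site TGACGTCA were searched too and not found in these windows. The marked matches do not overlap each other. The windows are those of *Sycp1* (chr3:102936101-102936250, minus strand), *Sycp2* (chr2:178407659-178407808, minus strand), *Sycp3* (chr10:88459437-88459586, plus strand), *Spata22* (chr11:73329591-73329740, plus strand), *Hfm1* (chr5:106925891-106926040, minus strand) and *Rad51ap2* (chr12:11455905-11456054, plus strand).
Sycp1: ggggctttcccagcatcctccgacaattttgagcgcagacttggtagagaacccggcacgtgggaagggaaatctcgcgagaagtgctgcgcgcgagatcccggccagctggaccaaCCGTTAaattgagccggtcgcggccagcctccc
Sycp2: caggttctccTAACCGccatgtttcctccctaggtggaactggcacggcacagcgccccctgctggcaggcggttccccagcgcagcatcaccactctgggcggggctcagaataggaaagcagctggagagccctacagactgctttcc
Sycp3: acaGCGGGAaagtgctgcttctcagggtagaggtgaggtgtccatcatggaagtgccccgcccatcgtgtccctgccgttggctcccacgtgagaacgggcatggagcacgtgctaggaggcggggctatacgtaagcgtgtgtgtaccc
Spata22: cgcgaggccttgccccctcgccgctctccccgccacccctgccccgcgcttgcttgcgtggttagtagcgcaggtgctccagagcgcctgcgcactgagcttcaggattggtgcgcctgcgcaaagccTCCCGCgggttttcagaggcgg
Hfm1: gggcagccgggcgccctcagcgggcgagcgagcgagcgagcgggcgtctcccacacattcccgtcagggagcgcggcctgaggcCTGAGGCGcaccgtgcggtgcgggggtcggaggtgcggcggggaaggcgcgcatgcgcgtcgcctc
Rad51ap2: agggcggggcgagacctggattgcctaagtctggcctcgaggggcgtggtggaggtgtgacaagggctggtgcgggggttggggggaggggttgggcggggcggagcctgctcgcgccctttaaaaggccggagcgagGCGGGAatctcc
The axis and synapsis genes *Sycp1* and *Sycp2* hold the MYB letters, at positions -33 to -28 and -140 to -135 from the start. *Sycp3*, *Spata22* and *Rad51ap2* hold the E2F letters, at -147 to -142, -22 to -17 and -12 to -7, and *Hfm1* holds the STRA8 letters at -66 to -59. Upstream of the printed bases, *Rad51ap2* also holds the MYB letters, at -226 to -221. In windows of 250 bases before the start, GCGGGA was found in 16.9% of 32851 promoters, in 28.5% of 12369 windows of tested genes and in 22.9% of 157 windows of the genes that are called higher below. TAACNG was found in 19.8%, 17.0% and 15.9% of them, and CNCCTCAG in 6.42%, 7.60% and 8.92%. These are matches of letters, and binding was not measured.

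Each of the 5 markers was higher in the even-numbered samples, with a median difference of 0.77 on the log2 scale. *Sycp3*, a component of the chromosome axis, stood at 385, 305, 267 and 366 CPM in the odd-numbered and at 558, 667, 515 and 661 CPM in the even-numbered samples. The sides did not overlap, and the log2 difference was 0.86 ± 0.13 (standard error of the fit, n = 4 samples a side). *Meiob*, which encodes the single-strand binding protein, had the largest difference of the markers. It stood at 60.4, 36.1, 31.1 and 49.0 CPM in the odd-numbered and at 90.7, 104, 81.7 and 102 CPM in the even-numbered samples, without overlap, a difference of 1.10 ± 0.19. *Spata22*, which encodes the partner of MEIOB, was at 41.4, 34.1, 30.8 and 38.6 CPM against 63.7, 60.3, 59.0 and 63.9 CPM, a difference of 0.77 ± 0.09. The even-numbered samples were close together for *Spata22* (61.7 ± 2.45 CPM, SD, n = 4), although they differed widely for other markers. *Sycp1*, encoding the transverse filament of the synaptonemal complex, was at 548, 399, 377 and 322 CPM against 655, 733, 412 and 735 CPM (0.63 ± 0.18). *Sycp2*, encoding the axis partner of SYCP3, was at 619, 572, 537 and 413 CPM against 910.3, 1031, 581 and 1016 CPM (0.73 ± 0.16). For these 2 genes the sides overlapped, because *Morc2b*-/- replicate 2 was below wild type replicate 1. Without wild type replicate 1 and *Morc2b*-/- replicate 3, the median difference of the markers was 0.93 and the sides did not overlap for any of the 5.

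**Figure D2:**
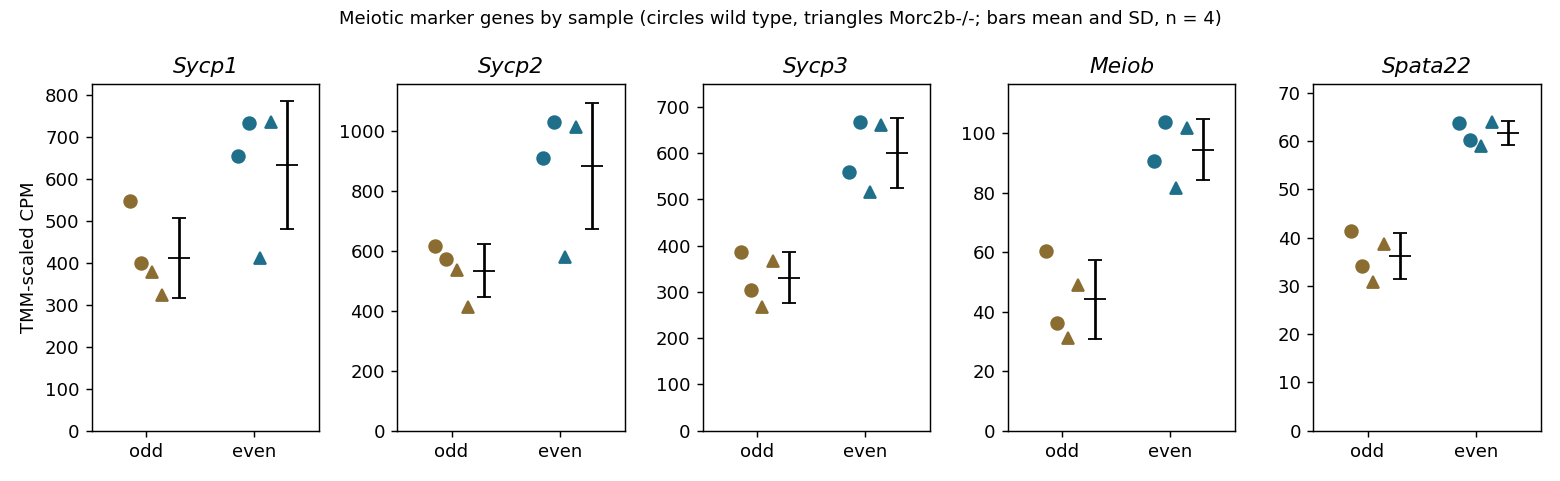
TMM-scaled CPM of the 5 markers in each odd-numbered (brown) and even-numbered (blue) sample, circles for wild type and triangles for *Morc2b*-/-, with mean and SD (n = 4) beside them. For *Sycp3*, *Meiob* and *Spata22* all even-numbered samples lie above all odd-numbered samples, and for *Sycp1* and *Sycp2* replicate 2 of *Morc2b*-/- lies among the odd-numbered ones.

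In the NCBIM37 annotation, *Sycp1* lies on chromosome 3 (102622422 to 102740023, minus strand), *Sycp2* on chromosome 2 (178079998 to 178142390, minus strand), *Sycp3* on chromosome 10 (87922314 to 87935981, plus strand) and *Spata22* on chromosome 11 (73143243 to 73169415, plus strand).

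Across all genes, a gene is called higher or lower here if all 4 samples of a side lay above all 4 of the other and the fitted difference was at least 1.5-fold. Of 13507 genes that passed the filter on low counts, 171 were higher in the even-numbered samples (1.27%) and 157 were lower (1.16%), 2.43% in either direction. Separated sides with any fold were found for 1068 genes higher (7.91%) and 996 lower (7.37%). The division was picked from these values, so these shares only give the background for the lists that follow. The median difference of all genes was -0.01. When samples were scaled on Sertoli genes alone, the median was 0.03, 185 genes were higher and 109 were lower.

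The extreme values were not spread equally over the samples of a side. By the rule, a called gene has its highest value on 1 side and its lowest on the other. Of the 171 higher genes, 84 had their highest value in wild type replicate 4, 54 in *Morc2b*-/- replicate 4, and 33 in a replicate 2. Of all 13507 tested genes, 2511, 1723 and 2121 had their highest value there. The lowest value was in wild type replicate 3 or *Morc2b*-/- replicate 1 for 136 of the 171 and in a spermatid-rich sample for 35. Over all genes, these counts were 3292 and 3451. Of the 157 lower genes, 113 had their lowest value in a replicate 4. Wild type replicate 1 held the highest value of 60 and *Morc2b*-/- replicate 3 that of 34. Over all genes, 4301 had their lowest value in a replicate 4 and 2463 in a replicate 2. The highest value was in wild type replicate 1 for 2089 and in *Morc2b*-/- replicate 3 for 1764. Without these 2 samples, 621 of 13359 tested genes were higher, among them 163 of the 171. In the same set 406 were lower, among them 116 of the 157. These counts are the background for list values given without the 2 samples. Fewer samples on a side make separation easier, so the larger counts follow in part from the rule.

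Genes of early meiosis in 6 lists (axis and synapsis, cohesin, break formation, strand exchange, crossover formation and telomere attachment) were mostly higher. Of 44 tested members, 39 had a difference above 0, 35 of them in each genotype separately, and the median was 0.42. Of the 44, 9 were called higher (20.5%, against 1.27% of all genes) and 0 were called lower. The markers are themselves members of these lists, and the split was picked from these data, so this count is not evidence of its own. Without the 2 spermatid-rich samples, 16 of the 44 were called higher (621 of 13359 over all genes) and 40 had a difference above 0.

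Among 9 tested genes of the axis and the synaptonemal complex, all had a difference above 0, with a median of 0.59. *Sycp3* was called higher, as was *Hormad2*, whose protein marks unsynapsed axes, at 40.3, 32.0, 29.9 and 35.2 CPM against 55.2, 55.2, 48.0 and 48.1 CPM (0.59 ± 0.09). Of the central element genes, *Syce1* and *Tex12* had smaller differences with separate sides. *Syce1* was at 135, 138, 126 and 143 CPM against 174, 161, 163 and 156 CPM (0.27 ± 0.05). *Tex12* was at 48.8, 50.4, 40.7 and 54.7 CPM against 68.9, 62.5, 65.8 and 58.2 CPM (0.39 ± 0.10). The central element gene listed as *4930447C04Rik* (*Six6os1*) overlapped between sides and was highest in both replicates 4, at 239 and 258 CPM, against 108 to 189 CPM in the other samples. *Hormad1* and *Syce2* were at 2.56 CPM or less in every sample. Each of these values rests on few counts.

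The cohesin and break formation genes, which act at the start of meiotic prophase, had smaller differences. Among the 4 meiotic cohesin genes, 0 were called, and the median was 0.28. *Stag3* was at 604, 602, 574 and 596 CPM against 801, 713, 734 and 688 CPM (0.31 ± 0.05) and *Smc1b* at 525, 553, 501 and 546 CPM against 723, 576, 593 and 653 CPM (0.26 ± 0.08). The sides were separate for both of these genes by less than 1.5-fold. *Rad21l* overlapped, at 43.0, 55.9, 48.6 and 58.1 CPM against 76.1, 45.8, 73.8 and 64.1 CPM, with wild type replicate 4 within the odd-numbered range. *Rec8* overlapped too, with a difference of -0.07 ± 0.11.

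Of 7 break formation genes, *Spo11* was called higher, at 1.199, 1.07, 0.614 and 0.945 CPM against 1.504, 1.63, 1.57 and 1.93 CPM (0.80 ± 0.23). It rests on 19 to 58 counts a sample, and because ambiguous reads were set aside, a low count does not show a low level. *Prdm9*, which directs the breaks to hotspots, was at 80.1, 106, 89.9 and 98.0 CPM against 142, 92.6, 121 and 112 CPM (0.33 ± 0.14), and *Iho1* at 92.6, 105, 96.9 and 104 CPM against 135, 97.3, 122 and 113 CPM (0.23 ± 0.10). Both were highest in wild type replicate 2 and lay within the odd-numbered range in wild type replicate 4. *Gm960* (*Top6bl*), the partner of SPO11, was separate at 29.1, 27.5, 24.8 and 28.2 CPM against 40.4, 29.6, 35.8 and 39.8 CPM (0.41 ± 0.11). *Rec114*, whose product works with MEI4 and IHO1, was the single member of the 6 lists with all even-numbered samples below all odd-numbered ones, at 19.07, 15.2, 19.3 and 15.6 against 20.2, 19.6, 19.5 and 19.5 CPM (-0.19 ± 0.10). *Mei1* and *Mei4* differed by 0.03 ± 0.16 and -0.01 ± 0.08. All 4 cohesin genes and 5 of the 7 break formation genes were highest in a replicate 2, whereas the 5 markers were all highest in a replicate 4.

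The strand exchange list had the most called members, 4 of 13, with a median of 0.46. Of the 13, 12 had a difference above 0 and 1 had a difference below 0, at -0.73. Besides *Meiob* and *Spata22*, the called members were *Mcmdc2* and *Rad51ap2*. *Mcmdc2*, an MCM-like gene needed for homology search, was at 14.0, 9.89, 8.40 and 10.3 CPM against 20.2, 33.3, 14.9 and 21.4 CPM (1.06 ± 0.20). *Rad51ap2* was at 49.8, 36.6, 29.9 and 48.9 CPM against 65.7, 83.5, 76.0 and 103 CPM (0.98 ± 0.19). Both had their lowest values in *Morc2b*-/- replicate 1. Separate sides below the call were seen for *Hsf2bp* (0.50 ± 0.10), *Mnd1* (0.53 ± 0.11), *Psmc3ip* (0.46 ± 0.14) and *Dmc1* (0.32 ± 0.10). *Hsf2bp* encodes a partner of BRCA2, and *Mnd1* and *Psmc3ip* encode the cofactor of the recombinases. *Dmc1*, the meiotic recombinase, was at 14.0, 15.3, 14.2 and 15.8 CPM against 20.1, 15.97, 20.1 and 17.7 CPM. *Rpa2* and *Rpa3*, which also serve repair and replication outside meiosis, differed by 0.01 ± 0.05 and 0.01 ± 0.08. *Brca2* was at 1.04 CPM or less in every sample.

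Of 6 crossover genes, *Hfm1*, a helicase needed for crossovers, was called higher at 142, 115, 97.3 and 134 CPM against 229, 199, 192 and 208 CPM (0.76 ± 0.11). *Cntd1*, which acts late at crossover sites, had a larger difference (1.34 ± 0.33) but overlapped, at 60.0, 23.8, 20.1 and 31.1 CPM against 72.3, 153, 52.5 and 69.6 CPM. Wild type replicate 4 was far above all other samples for *Cntd1*. *Msh4* (0.53 ± 0.23), *Ccnb1ip1* (0.24 ± 0.11), *Tex11* (0.15 ± 0.07) and *Prr19* (-0.04 ± 0.08) overlapped. *Msh5* had 0 counts in every sample, which is not read as absence of its expression, since 26.8% to 28.8% of reads were set aside as ambiguous.

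Genes for the attachment of telomeres to the nuclear envelope all had differences above 0, with a median of 0.56 over 5 genes. *Spdya*, an activator of CDK2 at telomeres, was called higher, at 21.6, 23.2, 19.3 and 26.4 CPM against 32.2, 39.9, 33.6 and 34.5 CPM (0.63 ± 0.11). *Kash5*, which links telomeres to dynein, lay just under the minimum of 1.5-fold, at 47.7, 40.8, 30.0 and 38.7 CPM against 64.2, 68.8, 48.4 and 53.6 CPM (0.58 ± 0.09), and *Hormad2* just over it. *Terb2* (0.56 ± 0.11) and *Majin* (0.44 ± 0.06), members of the attachment complex, were separate, and *Terb1* (0.51 ± 0.13) overlapped because of wild type replicate 4, at 55.2 CPM. All 5 genes had their lowest value in *Morc2b*-/- replicate 1.

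**Figure D3:**
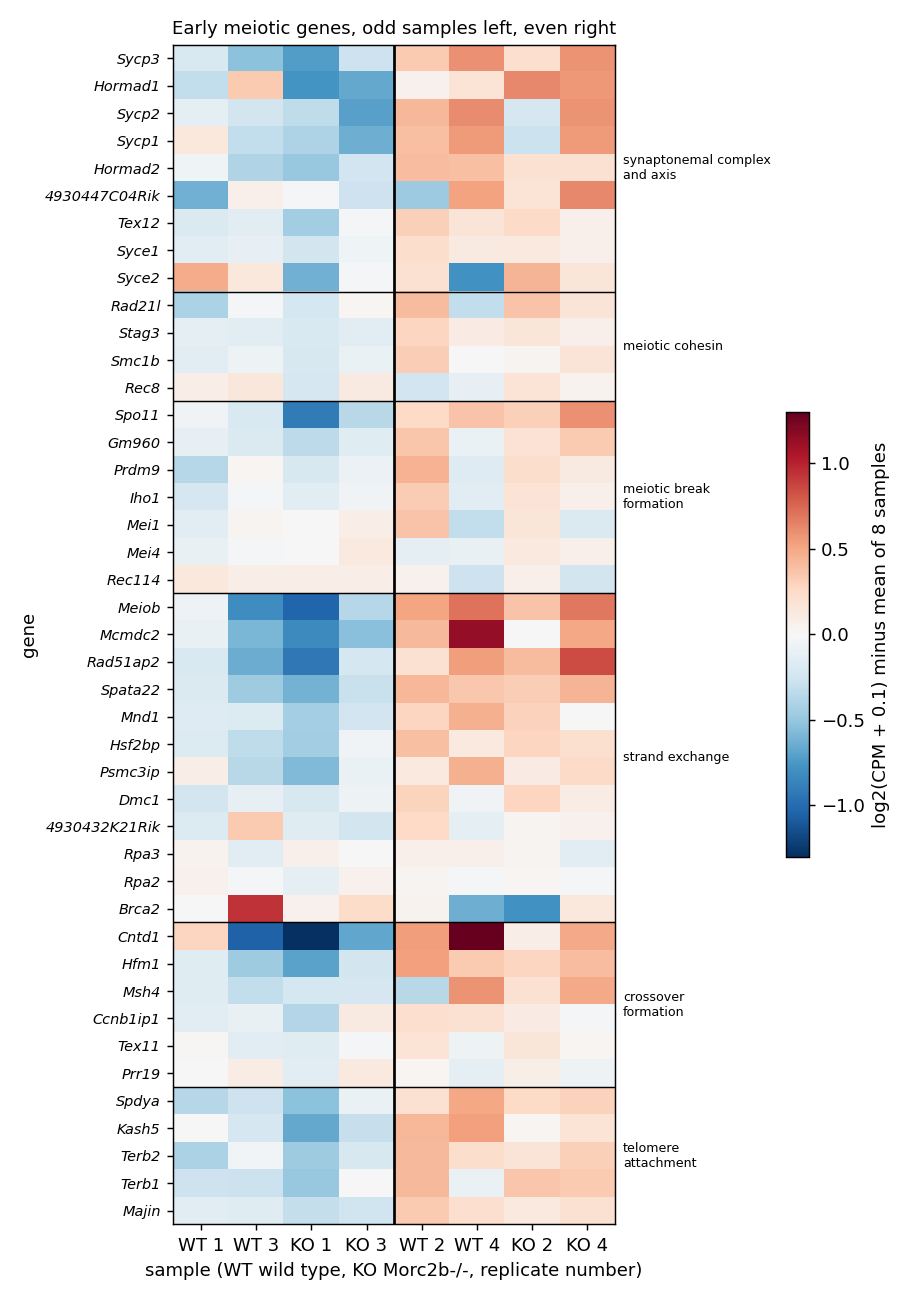
Log2(CPM + 0.1) of 43 early meiotic genes minus the mean of 8 samples, odd-numbered samples at the left and even-numbered samples at the right of the black line, with colour limits at ±1.3. Of these genes 38 have a difference above 0, *Morc2b*-/- replicate 1 holds most of the lowest values, and *Rpa2* and *Rpa3* are near white throughout.

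Over all called genes with a mean of at least 5 CPM, the 10 with the largest differences included *Meiob*, *Mcmdc2* and *Rad51ap2*, described above, and the following. *Spesp1*, which encodes a sperm equatorial segment protein, was at 11.6, 2.68, 3.01 and 7.96 CPM against 13.2, 22.2, 14.2 and 21.0 CPM (1.48 ± 0.46). *Cfap54* and *Dnaic1*, genes of cilia and flagella, differed by 1.45 ± 0.32 and 1.00 ± 0.23. *Cfap54* was at 7.63, 2.54, 2.68 and 3.95 CPM against 10.8, 16.5, 8.22 and 10.4 CPM. *Tsx*, an X-linked testis gene, was at 31.9, 23.2, 26.2 and 22.9 CPM against 41.5, 67.5, 33.8 and 93.3 CPM (1.18 ± 0.31), with *Morc2b*-/- replicate 4 above all others. *Zfy1*, the Y-linked zinc finger gene with roles in the meiotic checkpoint, was at 17.5, 11.0, 14.0 and 15.3 CPM against 20.8, 22.9, 28.9 and 51.2 CPM (1.03 ± 0.25). *Kndc1* (1.41 ± 0.35) and *Prph2* (1.01 ± 0.25), best known in neurons and photoreceptors, were highest in the replicates 4 too. For *Spesp1*, *Cfap54* and *Kndc1*, the lowest values were those of wild type replicate 3 and *Morc2b*-/- replicate 1.

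Genes of the pachytene stage, which follows zygotene, depended on the spermatid-rich samples. Of 12 tested, 0 were called and the median was 0.30. *Piwil1*, which encodes the pachytene piRNA protein MIWI, was at 36.2, 16.6, 15.5 and 14.7 CPM against 46.3, 133, 14.8 and 15.8 CPM (0.92 ± 0.47). The even-numbered wild type samples were higher, while all 4 *Morc2b*-/- samples lay between 14.7 and 15.8 CPM. *Adam2*, a sperm surface gene, was at 12.2, 0.786, 0.582 and 8.11 CPM against 15.5, 44.7, 3.41 and 6.50 CPM (1.23 ± 0.97). *Tesmin* (1.29 ± 0.33), *Ybx2* (0.84 ± 0.21) and *Mybl1* (0.81 ± 0.22) had differences above 0 with overlap. *Ldhc* (-0.53 ± 1.22) and *Pgk2* (-3.26 ± 1.27) encode germ cell enzymes of glycolysis. The spermatid-rich samples had 64.7 and 103 CPM of *Ldhc*, above all others except wild type replicate 4 (111 CPM). For *Pgk2* they had 10.6 and 22.3 CPM, and all others had 2.30 CPM or less. Of the 12 genes, 10 were highest in wild type replicate 4. Without the 2 spermatid-rich samples, 6 of 12 were called higher (621 of 13359 over all genes), and the median was 0.94.

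The cilium and axoneme list also depended on these samples, and on wild type replicates 3 and 4. Of 16 tested genes, *Dnaic1* was called higher, at 10.3, 5.46, 4.53 and 7.74 CPM against 15.4, 17.8, 11.0 and 12.3 CPM, and the median was 0.29. *Rsph1*, a radial spoke gene, was at 96.8, 26.6, 21.7 and 44.7 CPM against 99.0, 201, 59.2 and 91.7 CPM (1.23 ± 0.42). *Cfap65* was at 13.5, 2.82, 2.46 and 3.81 CPM against 15.7, 55.9, 3.60 and 5.47 CPM (1.38 ± 0.61). Both genes overlapped. Wild type replicate 1 was the highest of its side for both, and for *Cfap65* replicate 2 of *Morc2b*-/- also lay below *Morc2b*-/- replicate 3. Without the spermatid-rich samples, 8 of 15 tested genes were called higher (621 of 13359 over all genes) and the median was 0.63. By contrast, the median was 0.02 without wild type replicate 4 and 0.0002 without wild type replicate 3. Of the 16 genes, 9 were highest in wild type replicate 4. In the full set 6 of the 16 had a difference below 0, among them *Tekt4* (-2.19 ± 0.99), a tektin gene with its highest values in the spermatid-rich samples, 1.96 and 3.75 CPM.

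Of 14 tested spermatid transcripts, 11 had a difference below 0, the median was -3.04 and 0 were called. *Tnp1*, a transition protein gene, was at 52.9, 1.29, 5.92 and 111 CPM against 0.697, 0.754, 13.3 and 0.722 CPM (-3.87 ± 1.37), and *Prm2*, a protamine gene, was at 35.1, 0.357, 5.11 and 77.4 CPM against 0.220, 0, 7.52 and 0 CPM. Wild type replicate 1 and *Morc2b*-/- replicate 3 were far above the others for both genes, and the remaining samples overlapped. Without these samples, 9 spermatid genes passed the filter, with a median of 0.17, and 2 were called higher (621 of 13359 over all genes). Spermatids are not yet formed by the germ cells of a testis of this age, and the source of these transcripts was not tested.

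The piRNA pathway genes of earlier germ cells differed little. Of 14 tested, 11 had a difference above 0, the median was 0.19, 0 were called higher and 1 was called lower. *Mov10l1*, the helicase that initiates piRNA production, was at 494, 376, 383 and 403 CPM against 529.6, 610.2, 503 and 541 CPM (0.40 ± 0.09), with separate sides. *Rnf17*, *Tdrkh* and *Asz1* were separate as well (0.31 ± 0.05, 0.23 ± 0.06 and 0.17 ± 0.05). *Piwil2*, encoding MILI, overlapped (0.18 ± 0.06). The called member, *Henmt1* (-0.85 ± 0.31), was at 0.82 CPM or less in every sample and was not called with samples scaled on Sertoli genes.

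Of 19 stem and progenitor genes, 14 had a difference below 0 and the median was -0.32, with 0 called in either direction. *Zbtb16*, encoding PLZF, was at 138, 185, 165 and 153 CPM against 131, 112, 140.4 and 106 CPM (-0.39 ± 0.12), and *Lin28a* was at 126, 159, 174 and 142 CPM against 138, 101, 134 and 102 CPM (-0.34 ± 0.14). Both overlapped, and both were lowest in the replicates 4. *Sox3* (-0.38 ± 0.11), *Bcl6b* (-0.34 ± 0.08) and *Lhx1* (-0.50 ± 0.17) had separate sides. Of the 19 genes, 13 were highest in wild type replicate 3 or *Morc2b*-/- replicate 1, the samples that most often held the lowest value of the genes called higher. *Foxo1*, encoding a transcription factor of stem cells, differed by -0.04 ± 0.06, and *Taf4b* had a difference above 0 (0.19 ± 0.08). Without the spermatid-rich samples the median was -0.42 and 2 genes were called lower (406 of 13359 over all genes).

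Among 8 genes of differentiating spermatogonia and meiotic entry the median was -0.05 and 0 were called. *Ccnd2*, a cyclin of differentiating spermatogonia, was at 378, 328, 362 and 329.8 CPM against 242, 229, 269.8 and 255 CPM (-0.49 ± 0.07). *Sohlh1*, a transcription factor of the same cells, was at 90.3, 115, 105 and 104 CPM against 85.2, 70.6, 83.3 and 79.5 CPM (-0.38 ± 0.09). The sides did not overlap for either gene. *Stra8*, induced by retinoic acid at meiotic entry, overlapped (0.00 ± 0.14), at 243, 324, 284 and 343 CPM against 344, 225, 330.3 and 293 CPM. It was lowest in both wild type replicates 1 and 4, which lay on opposite sides. Of 10 genes of retinoic acid metabolism and its receptors, 0 were called (median -0.08). *Cyp26a1*, which degrades retinoic acid, was separate at 6.87, 9.999, 8.95 and 9.34 CPM against 11.7, 11.2, 10.2 and 14.3 CPM (0.43 ± 0.15).

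Cell cycle genes had small differences. The 16 DNA replication genes had a median of 0.01 and the 12 mitotic genes a median of 0.15, with 0 called in both lists. *Mcm3* (-0.02 ± 0.05) and *Rrm1* (-0.07 ± 0.06), of the replication machinery, overlapped. *Top2a*, a topoisomerase of dividing cells, was separate at 1056, 962, 915 and 1023 CPM against 1241, 1085, 1224 and 1131 CPM (0.24 ± 0.07). *Cdk1*, the kinase of cell division, overlapped, at 129, 100.2, 96.7 and 107 CPM against 129.6, 152, 128 and 158 CPM (0.39 ± 0.11).

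X-linked genes of spermatogonia and early spermatocytes all had differences above 0 (8 of 8, median 0.33), with 0 called and 0 separate. Without the spermatid-rich samples 1 was called higher (621 of 13359 over all genes). In the full set the difference was larger in *Morc2b*-/- (median 0.45) than in wild type (0.19), and this contrast was not tested for the list. *Taf7l*, a germ cell paralogue of a TFIID subunit, was at 498, 573, 557 and 614 CPM against 642, 550.1, 782 and 813 CPM (0.30 ± 0.09). *Tktl1*, a transketolase-like gene, was at 159.9, 172, 163 and 189 CPM against 210.4, 173, 251 and 262 CPM (0.38 ± 0.09). *Ccnb3*, an X-linked cyclin gene of early meiotic cells outside this list, was at 105, 98.3, 105 and 152 CPM against 182, 105, 273 and 319 CPM (0.85 ± 0.22). For all 3 genes the even-numbered *Morc2b*-/- samples were the highest, and wild type replicate 4 lay within the odd-numbered range.

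The *Morc* genes, *Prdm9* and the genes the study had picked for real-time PCR from these samples formed a further list. Of 12 tested, 11 had a difference above 0, with a median of 0.47 and 0 called, and since the study chose the PCR genes on these samples, the direction is not independent evidence. Without the 2 spermatid-rich samples, 4 were called higher (621 of 13359 over all genes), 9 had a difference above 0 and the median was 0.92. *Zmynd10*, a gene of dynein arm assembly, was at 11.4, 1.11, 0.453 and 5.44 CPM against 9.43, 29.4, 1.92 and 2.10 CPM (0.61 ± 0.92), with overlap. The median of the list was 0.74 in wild type and 0.08 in *Morc2b*-/-. Over both genotypes, it was 0.24 without wild type replicate 4 and 0.85 without *Morc2b*-/- replicate 3. Of the other *Morc* genes, *Morc1*, needed in male germ cells, was the single member below 0 (-0.25 ± 0.10), at 49.4, 66.2, 69.8 and 60.8 CPM against 54.8, 50.5, 51.7 and 49.9 CPM. *Morc2a*, the close relative of *Morc2b*, differed by 0.08 ± 0.07.

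Of 17 Sertoli genes, 0 were called, the median was -0.03 (0.01 when samples were scaled on these genes), and the summed level ranged from 10860 to 12960 CPM in the even-numbered and from 11400 to 12860 CPM in the odd-numbered samples. *Sox9* (-0.11 ± 0.06), *Wt1* (-0.07 ± 0.07) and *Clu* (-0.02 ± 0.06) overlapped. *Amh*, the hormone of immature Sertoli cells, was lower in the even-numbered samples without overlap, at 174, 136, 140.3 and 143 CPM against 124, 77.2, 125 and 87.5 CPM (-0.52 ± 0.17). *Gata1*, which appears in Sertoli cells as the first wave proceeds, was higher without overlap, at 106, 133, 125 and 130.4 CPM against 138, 143, 146 and 157 CPM (0.24 ± 0.07).

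Of 8 Leydig genes, 0 were called, but single genes differed by more than the meiotic markers. *Cyp17a1*, an enzyme of androgen synthesis, was at 224, 339.6, 404 and 112 CPM against 52.7, 61.4, 63.5 and 189.7 CPM (-1.66 ± 0.50). *Star*, which carries cholesterol into mitochondria, was at 80.5, 209.8, 191 and 67.0 CPM against 41.0, 58.5, 36.2 and 112 CPM (-1.17 ± 0.48). Wild type replicate 3 and *Morc2b*-/- replicate 1 were highest for both, and *Morc2b*-/- replicate 4 was above *Morc2b*-/- replicate 3. *Hsd3b6*, an enzyme of mature Leydig cells, was high in the replicates 4 alone, at 47.2 and 49.2 CPM, against 10.1 to 14.3 CPM elsewhere. Without the spermatid-rich samples 4 Leydig genes were called lower and 1 higher (406 and 621 of 13359 over all genes).

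The 5 peritubular genes had a median of -0.46, with *Des* called lower, at 62.2, 26.4, 27.4 and 30.0 CPM against 20.1, 23.5, 22.6 and 22.4 CPM (-0.69 ± 0.26). All 5 were highest in wild type replicate 1, and without the spermatid-rich samples the median was -0.08 and 0 were called. The 4 endothelial genes had a median of -0.49 and were also highest in wild type replicate 1. Their median was still -0.39 without the spermatid-rich samples, and the sides were separate for *Cdh5* (-0.47 ± 0.13). The 9 macrophage genes had a median of -0.07, and 0 were called in the endothelial and macrophage lists. Of the 7 red blood cell genes, the globin genes and *Alas2* had 0 counts, and *Slc4a1* was at 4.96 CPM in wild type replicate 1 and at 0.69 CPM or less elsewhere. The summed level of 10 immediate early and heat shock genes was 178.1 to 218.9 CPM in the even-numbered and 232.7 to 246.4 CPM in the odd-numbered samples, without overlap. Of these genes 9 were tested, with a median of -0.30 and 0 called. Of 9 p53 target genes, *Eda2r* was called lower at 1.07 CPM or less, and *Pmaip1*, which encodes NOXA, was at 16.5, 14.5, 12.7 and 15.8 CPM against 16.5, 32.6, 22.5 and 36.0 CPM (0.85 ± 0.23). Without the spermatid-rich samples, 1 p53 target was called higher and 1 lower (621 and 406 of 13359 over all genes). The part of these cell types and stress genes in the difference between sides was not tested.

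**Figure D4:**
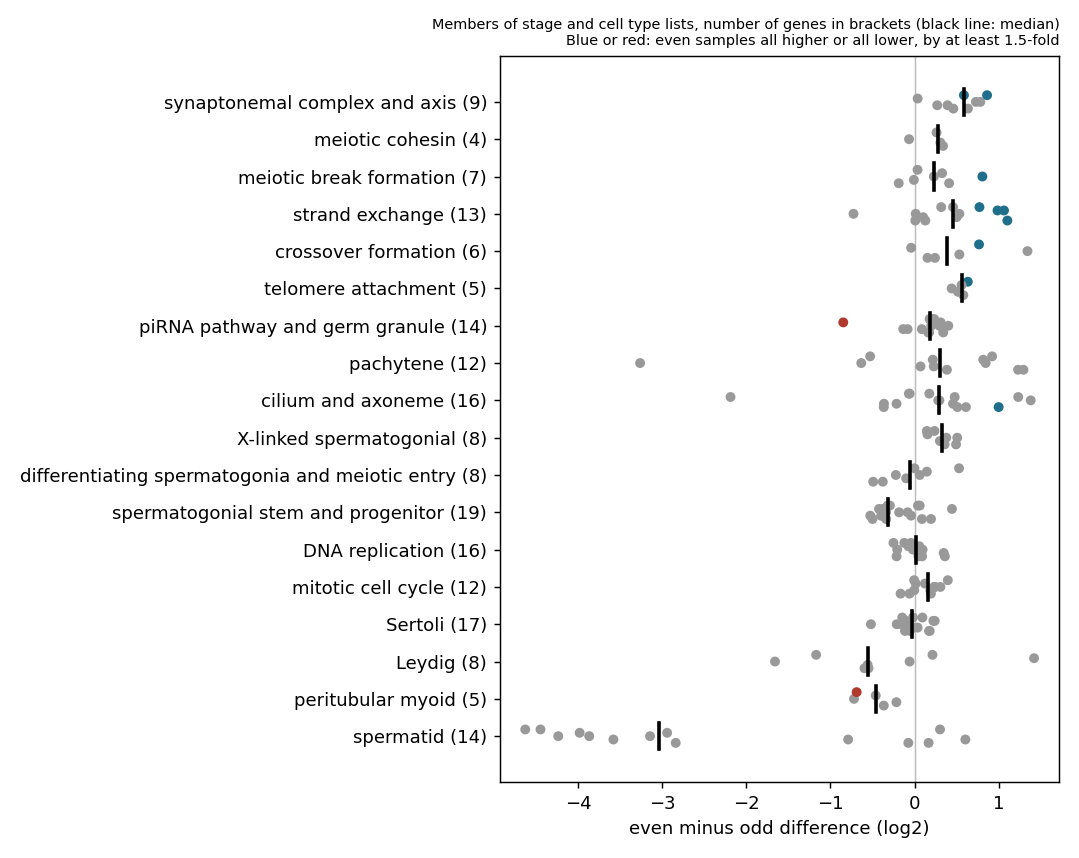
Even minus odd log2 difference of the tested members of 18 lists, 1 point a gene, with the median as a black line and called genes in blue (higher) or red (lower). The 6 early meiotic lists at the top have medians of 0.23 to 0.59, stem and progenitor genes -0.32, Sertoli genes -0.03 and spermatid genes -3.04.

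Among called genes with a mean of at least 5 CPM, the lowest differences included those of receptor and enzyme genes. *Epha2*, an ephrin receptor, was at 26.8, 32.2, 43.5 and 32.7 CPM against 17.2, 14.99, 19.06 and 16.7 CPM (-0.98 ± 0.12). *Erbb3*, a receptor of neuregulins, was at 23.7, 32.6, 26.7 and 26.1 CPM against 17.4, 10.8, 17.1 and 12.6 CPM (-0.92 ± 0.18). *Gsg1l* (-1.03 ± 0.29) and *Adamtsl2* (-0.94 ± 0.23) were lowest in the replicates 4 as well. *Hsd17b1*, an enzyme of estrogen synthesis, was at 12.2, 8.75, 11.7 and 12.8 CPM against 8.07, 4.81, 7.52 and 3.88 CPM (-0.90 ± 0.25). *Lpcat2*, which remodels phospholipids, was highest in wild type replicate 1, at 30.2, 15.6, 19.14 and 23.0 CPM against 12.9, 10.6, 14.5 and 8.77 CPM (-0.91 ± 0.23). *Hspb8*, a small heat shock protein gene, was lower by a narrow margin, since *Morc2b*-/- replicates 3 and 4 had 10.2 and 10.04 CPM (-0.94 ± 0.25). *Mapk4* (-0.84 ± 0.18), *Olfml2a* (-0.81 ± 0.16) and *Cap2* (-0.80 ± 0.15) completed the 10.

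Whether the difference between sides was the same in both genotypes was tested with the interaction of genotype and side. This contrast was not used to choose the split. The split was nevertheless picked on these same samples, across both genotypes, so the test is not independent of that choice. By edgeR's quasi-likelihood test, 0 of 13507 genes had an adjusted p-value under 0.05, and the smallest was 0.9997. Before adjustment, 163 genes (1.21%) had a p-value under 0.05, while DESeq2 and limma-voom gave 139 and 145 such genes and 0 after adjustment. Of the 328 called genes, 0 had opposite signs in the genotypes, which the requirement of separate sides already ensures. A difference of at least 1.5-fold was present in each genotype alone for 113 of 171 higher and 79 of 157 lower genes. These genes were called for at least 1.5-fold over both genotypes together. The counts are therefore not evidence of their own that the genotypes agree. With 4 residual degrees of freedom, a failed test does not show that the genotypes were alike.

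The markers had differences above 0 in both genotypes, but the split was picked across both genotypes to follow the meiotic wave. Their agreement between genotypes is therefore not independent evidence. The log2 difference of *Sycp3* was 0.84 in wild type and 0.90 in *Morc2b*-/-, that of *Meiob* 1.02 and 1.20, and that of *Spata22* 0.73 and 0.83. *Piwil1* differed by 1.77 in wild type and by 0.03 in *Morc2b*-/- (interaction -1.74 ± 0.71, edgeR adjusted p = 0.9997). *Usp26*, an X-linked germ cell gene, differed by 0.06 and 0.43 (interaction 0.37 ± 0.10, edgeR adjusted p = 0.9997). The pachytene list had a median of 0.68 in wild type and 0.12 in *Morc2b*-/-, and the cilium list had 0.76 and -0.06. Single samples moved the medians of both lists. Over both genotypes, they were 0.72 (pachytene) and 0.51 (cilium) without *Morc2b*-/- replicate 3. Without wild type replicate 4, they were 0.23 and 0.02. These lists differed between genotypes in medians only, and no gene of theirs passed. The smallest unadjusted p-values of the interaction belonged to *Atp6v1b1*, *Fbln5* and *Cage1*, also without passing. *Fbln5*, an elastic fibre gene, was at 90.0, 84.5, 109 and 115 CPM against 97.4, 87.7, 80.4 and 86.6 CPM, and *Cage1*, a cancer/testis antigen gene, at 14.1, 14.0, 13.9 and 20.1 CPM against 20.4, 19.3, 12.1 and 11.1 CPM. *Atp6v1b1* was at 0.57 CPM or less in every sample.

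**Figure D5:**
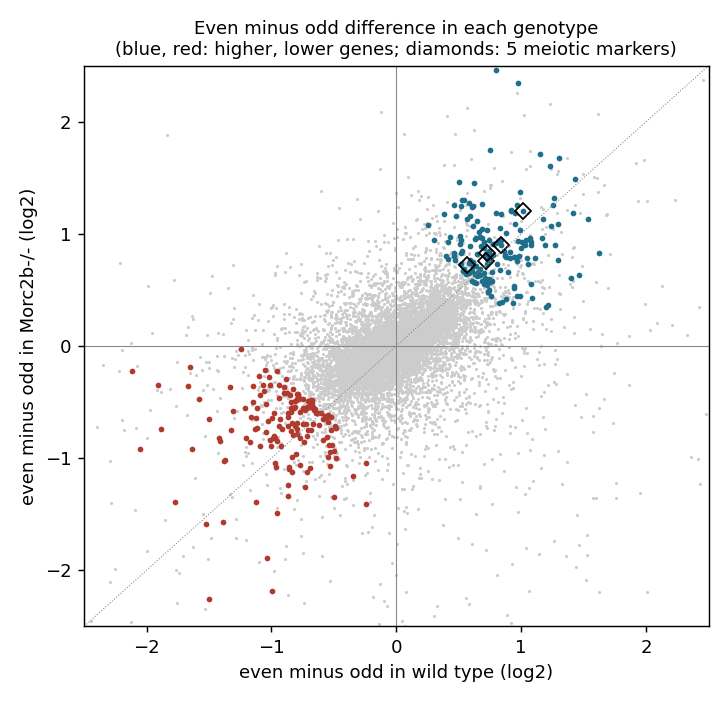
Even minus odd log2 difference of each gene in wild type (x axis) and in *Morc2b*-/- (y axis), with genes called higher in blue, lower in red and the 5 markers as diamonds; 128 genes lie outside the axes at ±2.5. All 328 called genes have the same sign in both genotypes, which separate sides require, and the markers lie near the dotted line of equal differences. The split was picked from these data across both genotypes.

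The genotypes were then compared with the side kept in the model. By edgeR's quasi-likelihood test 0 of 13507 genes passed an adjusted p-value of 0.05, and 415 (3.07%) had an unadjusted p-value under 0.05, against 249 when genotype stood alone in the model. DESeq2 called 9 genes (410 at the unadjusted level), and limma-voom called 0 (439). The deleted gene *Morc2b* itself did not pass in edgeR, with a log2 difference of -3.93 (standard error 1.38). A count of 0 therefore does not show that the genotypes were alike. The paper called genes with Cuffdiff and checked some by real-time PCR in independent testes, which was not repeated here. The smallest p-values in edgeR belonged to *Pkmyt1*, *Limd1* and *Snrnp70*, which DESeq2 called. *Pkmyt1*, an inhibitory kinase of CDK1, was at 23.9, 21.5, 17.3 and 16.6 CPM in the odd-numbered and at 22.7, 26.9, 15.8 and 18.0 CPM in the even-numbered samples. Within each side both wild type values were above both *Morc2b*-/- values, with a log2 difference of -0.49 (standard error 0.09) in *Morc2b*-/-, and the sides hardly differed (0.06 ± 0.09). *Snrnp70*, a U1 snRNP gene, differed by -0.32 (standard error 0.06) and *Limd1* by 0.24 (standard error 0.05) between genotypes. *Kash5*, which differed between the sides, had a genotype difference of -0.37 (standard error 0.09). *Dnah8*, an axonemal dynein gene called by DESeq2 (adjusted p = 0.00821), was at 93.9, 66.2, 58.8 and 55.6 CPM against 115, 164, 63.8 and 62.6 CPM.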

How the data were processed

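RNA from whole testes of 8 mice at postnatal day 12 was sequenced from stranded mRNA libraries, which the authors mapped with TopHat to NCBIM37 (mm9). The authors deposited 1 table a sample, with the raw count of reads on each RefSeq transcript. Which program counted them, whether it used strand, and which annotation release it used is not given in the sources used here. Counts of 35819 transcripts were summed to 24651 gene symbols, and 297 transcripts without a symbol (0.484% of counts) were kept under their own identifiers. Reads not assigned to a transcript were left out of library sizes, and 26.8% to 28.8% of reads were ambiguous. Totals were 27144796 to 36941755 per sample, and no pair of samples agreed within sampling noise (smallest chi-square per degree of freedom 6.86).

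After edgeR's filter on low counts, 13507 genes were scaled by TMM and fitted with edgeR 4.0.16 in R 4.3.3. Genotype and side were the terms, giving even minus odd log2 differences. The standard error is the absolute difference divided by the square root of the F statistic. Log2 CPM, with a prior count of 2, served for the separation of sides and the principal components. A gene was called if the sides did not overlap and the fold was at least 1.5. The interaction and the genotype term were tested with the quasi-likelihood test and Benjamini-Hochberg adjustment at 0.05. DESeq2 1.42.0 and limma 3.58.1 (voom), other scalings and filters, each genotype alone and the removal of samples were alternatives. The fits were tested on simulated data.

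The rule for named genes took the markers, the 10 highest and 10 lowest differences among genes with separate sides and a mean of at least 5 CPM (clone names left out), the 3 largest differences and 2 highest levels in each list, the *Morc* genes, *Prdm9* and the study's PCR genes, and the 3 smallest p-values of each test. From these, the ones that carry each result are named. The samples, the lists and this rule were chosen with earlier results of these data known. Other members that are named were chosen after their values were seen. Labels do not say that a replicate number is shared by a litter or day. Pairs with the same number correlated at a mean of 0.0548 in their deviations from the genotype means (4 pairs, -0.322 to 0.453). The pairs of replicates 2 and 4 correlated at 0.245 and 0.453, those of replicates 1 and 3 at -0.156 and -0.322. The numbers thus did not pair all samples. Methods name FPKM and Cuffdiff for the expression analysis, and those values were not used here. The series text calls the samples of a genotype biological replicates. Of the strand exchange list, 1 tested member of the strand exchange list is not reported here by name and is left out of the heat map.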

Additional observations from a re-analysis of the deposited data

Results flagged for a closer look

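Of 130 groups of 4 samples examined, 10 had a sample far from the other 3 by Dixon's test, and chance flags about 1 in 20 groups. Among the even-numbered samples, *Morc2b*-/- replicate 2 stood high in summed spermatid transcripts (71.06 CPM, the others 38.8 to 42.2), in red blood cell transcripts (1.00 CPM, the others 0.47 to 0.55) and in epididymal transcripts (18.0 CPM, the others 3.03 to 5.13). Among the odd-numbered samples, wild type replicate 1 stood high in peritubular transcripts (2409 CPM, the others 1362 to 1537), in red blood cell transcripts (5.668 CPM, the others 0.46 to 1.15) and in epididymal transcripts (253.3 CPM, the others 3.65 to 5.21). The same sample stood high among the odd-numbered samples for *Cfap65* (13.52 CPM, the others 2.46 to 3.81) and *Piwil1* (36.17 CPM, the others 14.7 to 16.6). *Morc2b*-/- replicate 3 stood low for *Hspb8* (10.2 CPM, the others 15.9 to 16.4) and high for *Ccnb3* (151.8 CPM, the others 98.3 to 105.4). No explanation for these values was tested.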

How the results depend on the processing

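With 171 genes higher and 157 lower as the reference, no filter on low counts gave 223 and 246, a minimum of 2-fold gave 31 and 30, and separation with any fold gave 1068 and 996. Wild type samples alone gave 386 higher and 455 lower, *Morc2b*-/- samples alone 380 and 325, and the set without both spermatid-rich samples 621 and 406. Fewer samples make separation easier by construction. Leaving out each sample in turn gave 170 to 368 genes higher and 154 to 342 lower. The count of higher genes moved by over 1.5 times without wild type replicate 1 (368) or *Morc2b*-/- replicate 2 (317). The count of lower genes did so without wild type replicates 1, 2 or 3 (236, 267 and 248) or *Morc2b*-/- replicates 1, 2 or 3 (238, 342 and 242). Scaling on the Sertoli genes gave 185 higher and 109 lower, of which 146 and 108 were among the 171 and 157. RLE scaling, DESeq2, limma-voom and a minimum of 10 counts in every sample left both counts within 1.5 times. The interaction had 0 genes past an adjusted p-value of 0.05 in edgeR, DESeq2 and voom and without any 1 sample. The genotype difference had 0 except with DESeq2 (9 genes).

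The replicate numbers did not pair all samples, since 4 of 8 correlated best with their own number, namely replicates 2 and 4 of both genotypes. With a replicate block, the genotype comparison had 0 genes past the threshold in edgeR (572 at an unadjusted p-value under 0.05). The side is fixed by the replicate number, so no block could be fitted for the even minus odd difference. The interaction was not fitted with a block.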
